A study of Mus musculus with 12 samples.

Results

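The UPF and SMG genes encode the core machinery of nonsense-mediated mRNA decay. The 9 genes considered were Upf1, Upf2, Upf3a, Upf3b, Smg1, Smg5, Smg6, Smg8 and Smg9, and their accessibility was read from every region that the deposited table lists under one of these names. Of 81995 regions, 11 were listed with 8 of the 9 genes, and no region was listed with Smg5. The start site region of a gene is the listed region whose centre lies nearest to its transcription start site. Upf1, Upf3a and Smg9 each had a second region.

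In this pathway UPF1, an RNA helicase, is brought to ribosomes that stop at a premature codon, with UPF2 and the UPF3 proteins (UPF3A and UPF3B, which are paralogues) linking it to the exon junction complexes left downstream by splicing. The kinase SMG1, held in check by SMG8 and SMG9, then phosphorylates UPF1. Phosphorylated UPF1 recruits SMG6, an endonuclease that cuts the mRNA near the stop codon, and SMG5, an adaptor that leads to decapping and deadenylation. Several of these factors are targets of the pathway themselves in mammalian cells.

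The study compared 4 groups of the mouse fibroblast line NIH/3T3, with 3 biological replicates in each. WT cells had intact Actg1, the cytoplasmic gamma-actin gene. PTC1 cells carried c.280_281insT on Actg1, together with an allele that also holds the 280A>G substitution, which gives an early stop in exon 3. PTC2 cells carried a 4036-nt insertion between positions 1096 and 1097 of the Actg1-202 transcript, with a premature stop codon in exon 5, and LD cells lacked the full Actg1 locus. A premature stop codon is the signal that nonsense-mediated decay acts on, whereas LD cells have no Actg1 transcript. The labels name no separate clones, so each allele was taken as 1 line, and p-values measure the spread between these libraries only.

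Accessibility came from ATAC-seq (a transposase, Tn5, inserts adapters where DNA is open) on 25000 cells per sample. Values are normalised read counts per region, scaled by the authors. They summed to 31.3 to 34.8 M (mega) per library, from an estimated 25.0 to 45.0 M reads in regions. Start sites of 14 of 15 fibroblast marker genes had a region, and their summed counts ranged from 22676 to 23351 over the WT libraries, 20992 to 21820 over PTC1, 23536 to 25737 over PTC2 and 22747 to 24562 over LD. Epithelial markers had regions at 2 of 5 genes (Krt8 and Cldn3) and blood markers at 2 of 5 (Ptprc and Spi1). Endothelial markers had them at 3 of 5 (Cdh5, Kdr and Erg). Neural markers (3 of 5 with a region) summed to 229 to 341 in WT and 706 to 832 in PTC1, and muscle markers (3 of 5) to 132 to 188 and 231 to 281. Endothelial markers summed to 540 to 622 in WT, 839 to 938 in PTC1 and 1021 to 1095 in PTC2. Blood markers went the other way, from 532 to 603 in WT to 348 to 422 in PTC1 and 370 to 384 in PTC2, with 516 to 584 in LD. Epithelial markers summed to 454 to 490 in WT, 385 to 487 in PTC1, 398 to 459 in PTC2 and 396 to 404 over LD. The part of these markers in the results was not tested. In such bulk libraries a change in every cell and a change in the share of cells with an open region cannot be told apart.

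All 9 genes had a promoter window of 300 bases in the RefSeq table (GRCm38.p6, the assembly also called mm10), from 250 bases before to 50 after the start. The windows were rich in G and C, with a median of 66.0% (53.3% to 72.3%) against 52.7% over 32851 promoters. Their ratio of observed to expected CpG was 0.799 to 1.20, against a median of 0.384. Both values describe CpG island promoters, a class common among broadly used genes. A GC box (GGGCGG) stood in 7 of 9 windows and in 35.7% of all promoters. The CCAAT box stood in 4 of 9 against 37.4%, and the ETS motif CCGGAAG in 1 of 9, that of Smg8, against 8.86%. The palindromic 10-letter motif of NRF1 stood in 2 of 9 windows, those of Upf1 and Smg9, and in 0.971% of all promoters. No window held the TATA box TATAAA, the cyclic AMP response element or the YY1 motif, present in 13.6%, 1.79% and 0.633% of promoters. Motifs were sought on both strands. Such matches are descriptions of letters and not of bound factors.

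The windows of 4 genes are shown for the comparison of motif positions that follows, with matches to the searched motifs in capitals. Upf1 (chr8:70353230-70353529, minus strand) and Smg9 (chr7:24399378-24399677, plus strand) share the NRF1 motif. It begins at -246 in Upf1 and at -6 in Smg9, so it lies at the start itself in Smg9 only. The paralogues Upf3a (chr8:13785365-13785664, plus strand) and Upf3b (chrX:37110273-37110572, minus strand) both hold a CCAAT box and a GC box, at different places. The match of CCAAT on the other strand appears as ATTGG, and that of GGGCGG as CCGCCC.
Upf1: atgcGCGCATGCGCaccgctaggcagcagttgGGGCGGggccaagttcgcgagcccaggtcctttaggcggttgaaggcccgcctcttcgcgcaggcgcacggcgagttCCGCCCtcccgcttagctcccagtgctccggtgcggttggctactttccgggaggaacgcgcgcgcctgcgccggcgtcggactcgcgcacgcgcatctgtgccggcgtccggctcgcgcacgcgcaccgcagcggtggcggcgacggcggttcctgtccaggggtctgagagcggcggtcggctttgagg
Smg9: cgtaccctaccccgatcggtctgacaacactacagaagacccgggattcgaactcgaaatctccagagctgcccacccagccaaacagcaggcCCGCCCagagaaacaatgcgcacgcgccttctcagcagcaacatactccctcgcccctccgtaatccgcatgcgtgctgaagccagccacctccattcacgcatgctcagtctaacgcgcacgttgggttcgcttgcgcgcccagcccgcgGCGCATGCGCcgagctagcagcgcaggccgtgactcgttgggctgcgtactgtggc
Upf3a: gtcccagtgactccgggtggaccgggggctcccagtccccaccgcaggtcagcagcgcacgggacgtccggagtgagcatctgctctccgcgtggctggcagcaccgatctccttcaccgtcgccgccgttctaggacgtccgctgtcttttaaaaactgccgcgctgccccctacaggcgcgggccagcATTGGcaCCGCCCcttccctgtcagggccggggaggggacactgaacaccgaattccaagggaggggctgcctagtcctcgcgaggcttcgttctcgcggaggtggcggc
Upf3b: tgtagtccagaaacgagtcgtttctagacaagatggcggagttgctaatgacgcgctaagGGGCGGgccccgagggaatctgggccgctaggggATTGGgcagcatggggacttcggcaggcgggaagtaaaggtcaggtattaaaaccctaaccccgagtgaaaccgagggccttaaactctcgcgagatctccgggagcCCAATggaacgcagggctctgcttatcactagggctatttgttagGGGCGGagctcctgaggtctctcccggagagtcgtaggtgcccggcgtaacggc

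In WT cells the start sites of the 8 genes with a listed region spanned a wide range of accessibility. Per kilobase of region, Upf3a was the highest at 2721 normalised reads, above 97.6% of 10051 start site regions. Smg1 followed at 1843, Upf3b at 1497, Upf2 at 1453, Smg9 at 975 and Upf1 at 646 normalised reads per kilobase. Smg8 stood at 356 (above 16.2% of start site regions). So the helicase gene Upf1 lay below the median start site, 966 normalised reads per kilobase, whereas the genes of its partners Upf2, Upf3a and Upf3b lay above it. The region listed with Smg6 was a different kind of feature: it was 142 bp wide, centred 1456 bp upstream of the start and held only 49.3 ± 8.02 normalised reads (SD, n = 3) in WT.

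For Smg5 and Smg6 the start itself lay in a region listed with a neighbour on the opposite strand. The Smg5 start lies in a region listed with Tmem79 (chromosome 3, 88335384 to 88336910), and that of Smg6 in a region listed with Srr, the serine racemase gene (chromosome 11, 74925444 to 74926883). These shared regions were strong, at 1655 ± 74.8 and 1356 ± 59.7 normalised reads in WT. Reads there cannot be assigned to 1 of the 2 genes. They were added after the table was seen and are given beside the listed regions.

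**Figure D1:**
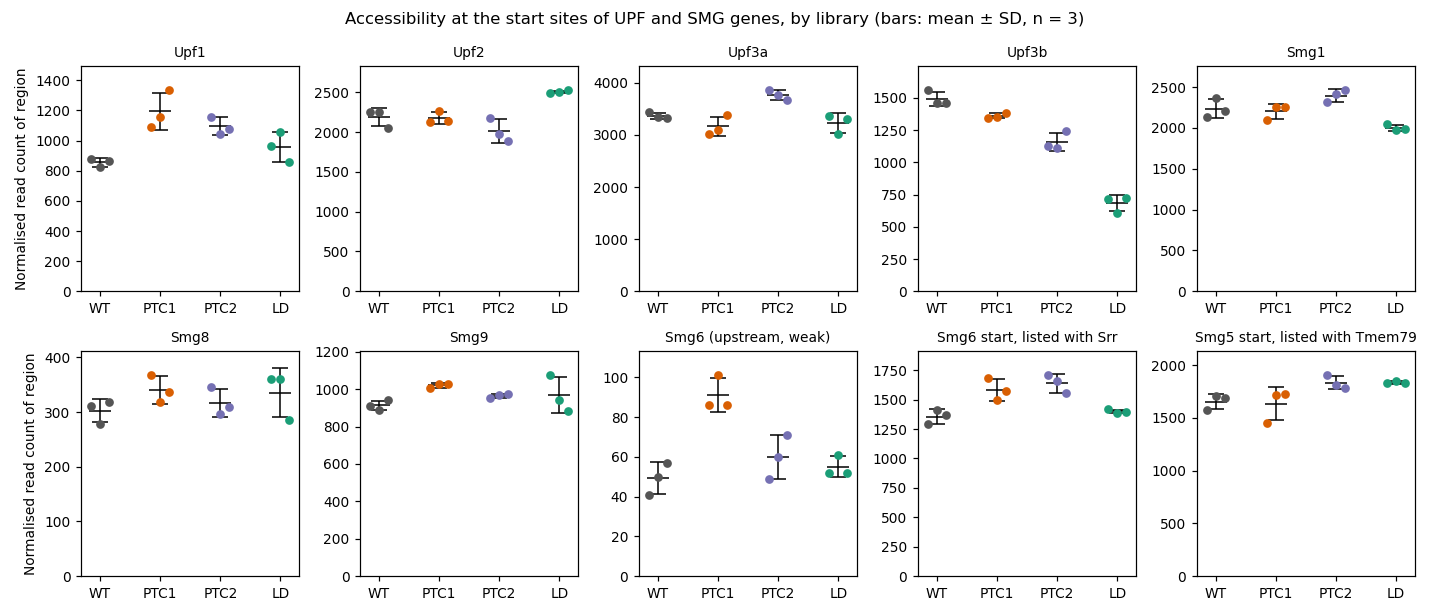
Normalised read count (vertical axes, from 0) of each start site region in the 12 libraries. Each point is 1 library, and the horizontal marks and bars are the mean ± SD of 3 libraries of WT, PTC1, PTC2 and LD. The 3 LD libraries lie at 610 to 720 for Upf3b, below all 9 others, and all PTC1 and PTC2 libraries lie above all WT libraries for Upf1.

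Against WT, each mutant line gave calls at 3 of the 8 listed start site regions (limma, Benjamini-Hochberg adjusted p under 0.05 over 81985 regions). In PTC1, Upf1, Smg6 and Smg9 were higher and 0 were lower. Calls were common everywhere: in PTC1, 61.8% of all regions were called, 30.6% higher and 31.2% lower, and of 10050 start site regions 62.8% were called, 33.4% higher and 29.4% lower. In PTC2, Upf1 and Upf3a were higher and Upf3b lower, where 58.2% of all regions were called (28.4% higher, 29.8% lower) and 53.0% of start site regions (38.8% higher, 14.2% lower). In LD, Upf2 was higher and Smg1 and Upf3b were lower, where 47.4% of all regions were called (22.6% higher, 24.7% lower) and 47.0% of start site regions (15.8% higher, 31.2% lower). The 8 include the Smg6 region, centred 1456 bp from its start, whereas the 10050 start site regions lie within 1000 bp of one. The members' share was 37.5%, 3 of 8 genes, in each of the 3 lines, and was not tested against these backgrounds. Their median log2 change was 0.08 in PTC1, 0.09 in PTC2 and 0.11 in LD, against 0.02, 0.11 and -0.06 over start site regions. The genes did not move as a block, and 1 change against WT exceeded a log2 of 1, that of Upf3b in LD.

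Upf1 was more open in both premature stop lines. Its start site region (chromosome 8, 70352567 to 70353893, centre 48 bp from the start) had 881, 822 and 867 normalised reads for WT, 1093, 1159 and 1333 for PTC1, 1160, 1046 and 1079 for PTC2 and 962, 1058 and 858 for LD. All 6 premature stop libraries exceeded all 3 WT libraries, and the LD libraries overlapped with both sides. PTC1 exceeded WT 1.39-fold (log2 0.48, 95% interval 0.32 to 0.64, adjusted p = 5.4e-06) and PTC2 exceeded it 1.28-fold (0.35, 0.19 to 0.51, adjusted p = 0.000302). In LD the log2 difference was 0.16 (-0.001 to 0.32, adjusted p = 0.096), and without LD replicate 3 it passed the test at 0.24 (adjusted p = 0.0239). Upf1 exceeded LD by a log2 of 0.32 in PTC1 (adjusted p = 0.000729) and 0.19 in PTC2 (adjusted p = 0.033), the latter call being lost without PTC2 replicate 1 (0.15, adjusted p = 0.134), PTC2 replicate 3 (0.20, 0.0545), LD replicate 1 (0.20, 0.0565) or LD replicate 3 (0.12, 0.242). PTC1 and PTC2 differed at Upf1 by 0.12 (-0.04 to 0.28, adjusted p = 0.176).

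The surroundings of Upf1 shifted in the same lines. Over the 145 other regions within 1 Mb, the median log2 change was 0.33 in PTC1, 0.41 in PTC2 and -0.01 in LD. Here and below, such counts and medians of neighbours leave out regions within 10 kb. Of 43 neighbouring start sites, 41 had a log2 change above 0 in PTC1 and 43 in PTC2, against 24 in LD. Upf1 lay above 34 of these 43 in PTC1, and above 12 in PTC2. On the whole of chromosome 8, 61.8% of 550 start sites were called higher in PTC1, 78.4% in PTC2 and, for LD, 16.2%. With each library centred on its regions within 1 Mb, the Upf1 differences were 0.24 in PTC1 (adjusted p = 0.092) and 0.16 in PTC2 (adjusted p = 0.255), and neither passed. The difference of Upf1 from LD was then 0.04 in PTC1 (adjusted p = 0.78) and reversed in PTC2 (-0.04, adjusted p = 0.803). The part of this regional shift in the Upf1 result was not tested further.

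A second Upf1 region lies 1817 bp into the gene (70351295 to 70351627) and separated the premature stop lines from the others more widely. It had 146, 166 and 118 normalised reads in WT and 146, 136 and 142 in LD, against 175, 254 and 221 in PTC1 and 271, 280 and 268 in PTC2. PTC1 and PTC2 lay above every WT and LD library. The log2 change was 0.59 in PTC1 (0.31 to 0.87, adjusted p = 0.000521), 0.94 in PTC2 (0.66 to 1.22, adjusted p = 1.1e-06) and -0.01 in LD (-0.29 to 0.28, adjusted p = 0.972). After local centring it was 0.68 in PTC2 (adjusted p = 0.00431) and 0.34 in PTC1, where the call was lost (adjusted p = 0.131). As a share of the start site region it was 16.8% ± 3.30 for WT, 18.2% ± 3.26 for PTC1, 25.0% ± 1.71 for PTC2 and 14.9% ± 1.87 for LD.

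Upf2, which bridges UPF1 to the UPF3 proteins, was highest in LD. Its region (chromosome 2, 5950568 to 5952074, 148 bp from the start) had 2251, 2258 and 2056 normalised reads for WT, 2129, 2270 and 2139 for PTC1, 2184, 1980 and 1883 for PTC2 and 2489, 2500 and 2524 for LD. The LD libraries lay above all others, and the other 3 groups overlapped. The log2 change was 0.20 in LD (0.08 to 0.31, adjusted p = 0.00547), -0.01 in PTC1 (-0.12 to 0.11, adjusted p = 0.943) and -0.12 in PTC2 (-0.24 to -0.004, adjusted p = 0.0711). PTC1 and PTC2 were lower than LD by -0.20 (adjusted p = 0.00262) and -0.32 (adjusted p = 2.06e-05). The sign depended on the scaling: centred by chromosome, LD against WT read -0.01 and the differences from LD turned to 0.18 and 0.21. These reversed differences passed the test (adjusted p = 0.0217 and 0.00756). So did PTC1 and PTC2 against WT, at 0.16 and 0.19 (adjusted p = 0.0389 and 0.0136). With columns scaled to the same median, PTC1 and PTC2 were no longer called lower than LD (-0.13 and -0.15, adjusted p = 0.081 and 0.0544). The LD call was also lost with columns scaled to the same median (0.12, adjusted p = 0.131), after local centring (0.01, 0.96) and without WT replicate 3 (0.15, 0.0508).

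The paralogues Upf3a and Upf3b did not share a pattern. Upf3a (chromosome 8, 13785242 to 13786478, 245 bp from the start) had 3430, 3345 and 3315 normalised reads for WT, 3018, 3103 and 3372 for PTC1, 3852, 3774 and 3668 for PTC2 and 3370, 3010 and 3302 for LD. PTC2 lay above every other library, by a log2 of 0.16 over WT (0.06 to 0.27, adjusted p = 0.00698), 0.22 over LD (adjusted p = 0.000354) and 0.25 over PTC1 (adjusted p = 7.54e-05). PTC1 and LD read -0.09 (-0.19 to 0.01, adjusted p = 0.125) and -0.06 (-0.16 to 0.04, adjusted p = 0.331) against WT. Under local centring the PTC2 change was 0.02 (adjusted p = 0.853), and those of PTC1 and LD were -0.30 and -0.28 and passed the test (adjusted p = 0.00952 and 0.0199). The median change of the 126 regions within 1 Mb was 0.06, 0.08 and 0.08 in PTC1, PTC2 and LD.

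Upf3b, on the X chromosome, gave the widest change of any start site in the family. Its region (37109780 to 37110777, 43 bp from the start) had 1557, 1458 and 1463 normalised reads for WT, 1347, 1352 and 1384 for PTC1, 1123, 1113 and 1240 for PTC2 and 713, 610 and 720 for LD. The 4 groups did not overlap, in the order WT, PTC1, PTC2 and LD. LD was at 0.456 of WT (log2 -1.13, -1.28 to -0.99, adjusted p = 5.28e-14) and PTC2 at 0.776 (-0.37, -0.51 to -0.23, adjusted p = 4.23e-05). PTC1 read -0.13 (-0.27 to 0.01, adjusted p = 0.0962). Upf3b stood higher than LD by a log2 of 1.00 in PTC1 and 0.77 in PTC2 (adjusted p = 1.48e-13 and 9.28e-11), and PTC1 exceeded PTC2 by 0.23 (adjusted p = 0.0042). So LD was the only line called lower than each of the other 3. The call of PTC1 over PTC2 was lost with columns scaled to the same median (0.13, adjusted p = 0.121). It was also lost centred by chromosome (0.016, adjusted p = 0.862) and under local centring (0.029, adjusted p = 0.829).

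The X chromosome moved with it. Of 325 start sites on X, 79.1% were lower in LD (31.2% over all chromosomes), with a median log2 change of -0.87, and 50.2% were lower in PTC2 with a median of -0.19. The 9 start sites within 1 Mb of Upf3b were all below 0 in LD, from -1.10 to -0.66, and Upf3b at -1.13 lay below all 9. The nearest genes on either side, Rpl39 (a ribosomal protein gene, 25.0 kb away) and Nkap (16.8 kb away), had log2 changes of -1.10 (adjusted p = 2.88e-14) and -0.81 (adjusted p = 4.06e-08) in LD. Over the 53 other regions within 1 Mb the medians were -0.001 in PTC1, -0.34 in PTC2 and -0.86 in LD. After local centring Upf3b was still lower in LD (-0.54, adjusted p = 0.000534), but not in PTC2 (-0.06, adjusted p = 0.664). Centred by chromosome, the LD change was -0.82 and the PTC2 sign turned to 0.07 (adjusted p = 0.397). What the rest of X contributes to the Upf3b values was not tested beyond these numbers.

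**Figure D2:**
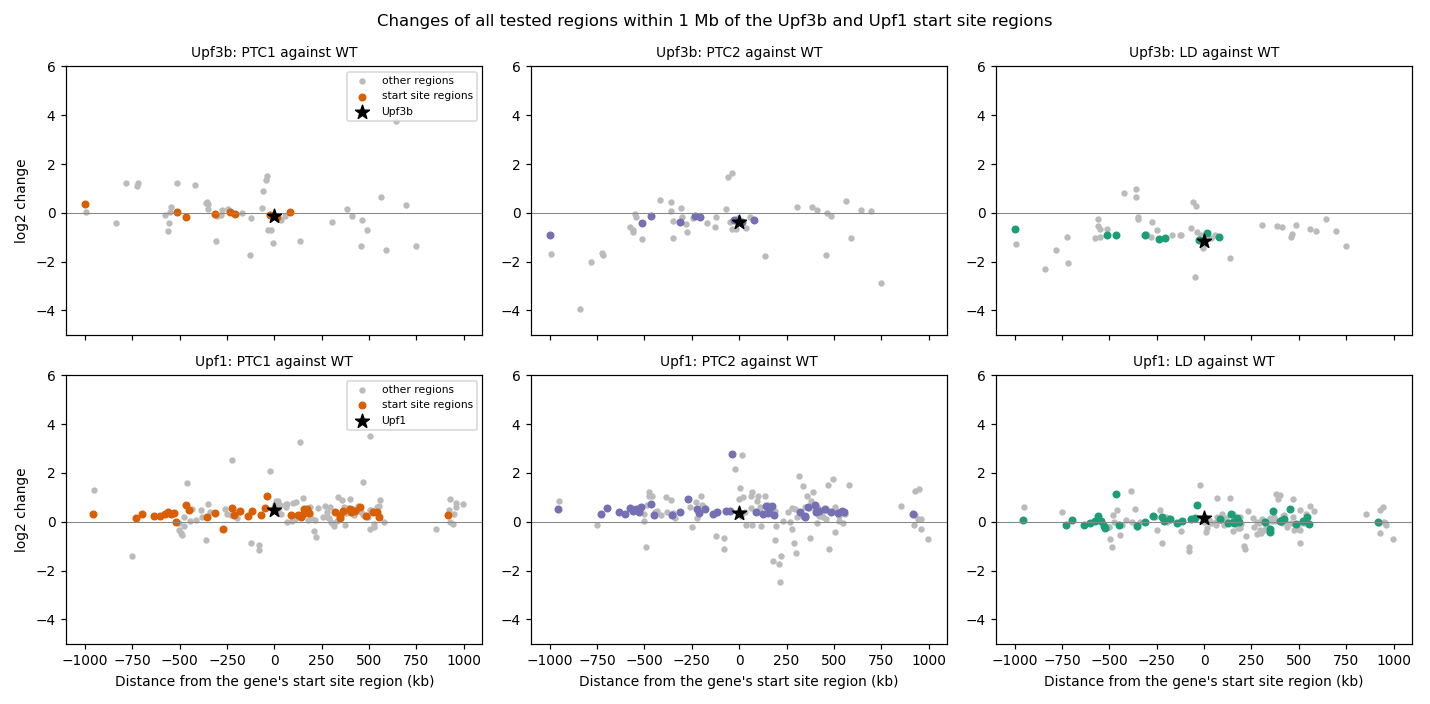
Log2 change against WT (vertical axes) of every tested region within 1 Mb of the Upf3b (top) and Upf1 (bottom) start site regions, by distance in kb (horizontal axes). Coloured points are start site regions within 1000 bp of a listed gene's start, grey points are other regions and the star is the gene itself. In LD the 9 start sites around Upf3b lie between -1.10 and -0.66, and around Upf1 most start sites lie above 0 in PTC1 and PTC2.

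Smg1, the kinase that phosphorylates UPF1, varied little in its group means, which spanned 1.20-fold. Its region (chromosome 7, 118243040 to 118244254, 23 bp from the start) had 2137, 2370 and 2204 normalised reads for WT, 2102, 2262 and 2251 for PTC1, 2314, 2417 and 2459 for PTC2 and 2044, 1970 and 1989 for LD. LD lay below all other libraries, at a log2 of -0.16 against WT (-0.27 to -0.05, adjusted p = 0.0149), and without WT replicate 2 this read -0.12 (adjusted p = 0.113). Smg1 was higher than in LD by 0.14 in PTC1 (adjusted p = 0.0226) and 0.26 in PTC2 (adjusted p = 0.000118), the first being lost without PTC1 replicate 2 (0.12) or 3 (0.12) or LD replicate 2 (0.13) or 3 (0.14). Under local centring the LD difference from WT turned to 0.19 (adjusted p = 0.0755), that of PTC1 from LD turned to -0.13 (adjusted p = 0.186), and PTC2 passed against WT (0.49, adjusted p = 7.01e-05). Against WT the Smg1 difference was -0.02 in PTC1 (-0.13 to 0.09) and 0.10 in PTC2 (-0.01 to 0.21). That of PTC2 also passed with columns scaled to the same median (0.20, adjusted p = 0.0077) and without WT replicate 2 (0.14, 0.0428). PTC1 lay below PTC2 without overlap, at -0.12 (-0.23 to -0.01, adjusted p = 0.0507). This stayed uncalled under 11 of 19 alternatives and passed under the others, such as local centring (-0.43, adjusted p = 0.000206) and equal medians (-0.22, 0.00278).

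Smg8 and Smg9 encode the subunits that restrain SMG1. Smg8 (chromosome 11, 87086238 to 87087087, 111 bp from the start) had 311, 279 and 318 normalised reads for WT, 367, 318 and 336 for PTC1, 345, 296 and 309 for PTC2 and 361, 361 and 285 for LD. All 4 groups touched or overlapped, and 0 of the 6 comparisons passed the test. The intervals against WT were -0.05 to 0.39 in PTC1, -0.16 to 0.28 in PTC2 and -0.08 to 0.36 in LD. They bound the differences only on the scale of the deposited values. Under local centring the LD difference from WT turned to -0.49, outside its interval, and passed (adjusted p = 0.00336). Smg8 then also passed as higher than LD in PTC1 (0.48, adjusted p = 0.00197) and PTC2 (0.31, adjusted p = 0.0361). The 103 other regions within 1 Mb had a median change of 0.21 in LD, beside 0.14 at Smg8. Smg9 (chromosome 7, 24399387 to 24400324, 237 bp from the start) had 910, 891 and 941 for WT, 1004, 1030 and 1026 for PTC1, 953, 967 and 973 for PTC2 and 1074, 943 and 885 for LD. PTC1 and PTC2 lay just above WT and LD spread across all groups. The PTC1 change of Smg9 was 0.16 (0.02 to 0.30, adjusted p = 0.049). It sat at the threshold and was lost without any 1 of the 3 WT or 3 PTC1 libraries (0.14 to 0.18, adjusted p = 0.0528 to 0.131). It was also lost with columns scaled to the same median (0.15, adjusted p = 0.0763) and centred by chromosome (0.14, adjusted p = 0.108), whereas local centring gave 0.41 (adjusted p = 0.00612). The 92 other regions within 1 Mb had a median change of 0.13 in PTC1. The other comparisons of Smg9 did not pass (log2 0.0002 to 0.08).

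Upstream of Smg9, a distal region had the widest changes of the 11 listed regions. It is centred 4773 bp from the start (24394617 to 24395074), at 216, 236 and 202 normalised reads for WT, 60, 62 and 58 for PTC1, 116, 135 and 166 for PTC2 and 348, 376 and 359 for LD. The 4 groups were fully apart, in the order LD, WT, PTC2 and PTC1, and the group means spanned 6.02-fold. Against WT the log2 change was -1.84 in PTC1 (-2.12 to -1.56, adjusted p = 1.21e-12), -0.66 in PTC2 (-0.94 to -0.38, adjusted p = 0.000133) and 0.73 in LD (0.45 to 1.00, adjusted p = 5.89e-05). PTC1 and PTC2 were lower than LD by -2.57 and -1.39 (adjusted p = 3.4e-16 and 5.46e-10). All 6 pairs of groups passed the test, and the calls held under local centring (-1.60, -0.52 and 0.89 against WT). The 90 other regions within 1 Mb had medians of 0.14, 0.09 and -0.02. So the distal region went from 23.9% ± 2.51 of the Smg9 start site region in WT to 5.88% ± 0.200 in PTC1 and 37.6% ± 4.53 in LD. The table lists it with Smg9 by distance, and no link to that gene's use was measured.

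Upf3a also had a distal region that differed from its start site. Centred 4950 bp upstream (13780427 to 13780902), it had 505, 507 and 537 normalised reads for WT, 450, 435 and 450 for PTC1, 260, 322 and 342 for PTC2 and 271, 278 and 240 for LD. WT was highest, PTC1 just below it, and PTC2 and LD near the same level. The log2 change was -0.97 in LD (-1.18 to -0.77, adjusted p = 3.49e-09), -0.75 in PTC2 (-0.96 to -0.55, adjusted p = 2.1e-07) and -0.21 in PTC1 (-0.42 to -0.01, adjusted p = 0.0661). The PTC1 difference passed under local centring (-0.39, adjusted p = 0.009), centred by chromosome (-0.32, adjusted p = 0.00887), with only the WT and PTC1 libraries fitted (-0.21, adjusted p = 0.0329) and without PTC2 replicate 1 (-0.21, adjusted p = 0.0415). PTC2 and LD differed by 0.22 (0.01 to 0.43, adjusted p = 0.0602), and passed with columns scaled to the same median (0.39), centred by chromosome (0.30) or centred locally (0.32). In PTC2 the start site rose by 0.16 while this region fell by 0.75 on the log2 scale.

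**Figure D3:**
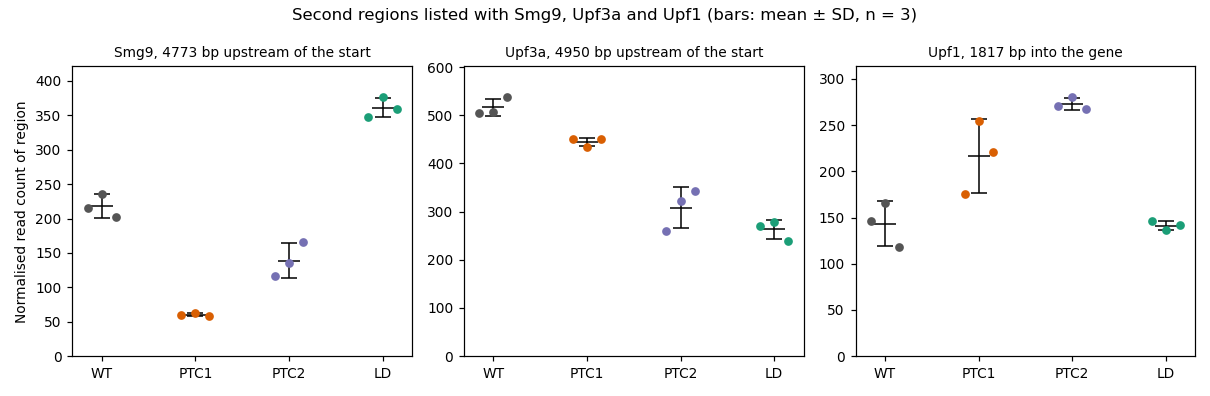
Normalised read count (vertical axes, from 0) of the second regions listed with Smg9, Upf3a and Upf1 in the 12 libraries. Points are libraries, and marks with bars are the mean ± SD of 3. At Smg9 the groups run from 60.0 in PTC1 to 361 in LD, at Upf3a from 263 in LD to 516 in WT, and at Upf1 from 141 in LD to 273 in PTC2.

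Of the genes for the 2 effectors that act on the target mRNA, Smg6 differed by which region was read. The small upstream region (chromosome 11, 74924296 to 74924438) had 41, 50 and 57 normalised reads for WT, 86, 101 and 86 for PTC1, 49, 60 and 71 for PTC2 and 52, 61 and 52 for LD. PTC1 lay above all 9 other libraries, which overlapped. It rose by a log2 of 0.88 in PTC1 (0.47 to 1.29, adjusted p = 0.000415), and PTC2 and LD read 0.27 (-0.14 to 0.69) and 0.16 (-0.25 to 0.58). PTC1 exceeded PTC2 by 0.60 (adjusted p = 0.0104), a call lost without PTC1 replicate 2 (0.53, adjusted p = 0.0504) or PTC2 replicate 1 (0.47, 0.0671). At this depth counting error alone is about 14.8% of the WT value. At the region shared with Srr, which holds the Smg6 start, the libraries had 1292, 1410 and 1367 for WT, 1680, 1494 and 1575 for PTC1, 1706, 1654 and 1553 for PTC2 and 1418, 1389 and 1392 for LD. Both premature stop lines lay above WT, by 0.22 in PTC1 (0.10 to 0.35, adjusted p = 0.00219) and 0.27 in PTC2 (0.15 to 0.40, adjusted p = 0.00032), with LD at 0.05 (-0.08 to 0.17). PTC1 and PTC2 exceeded LD there by 0.18 and 0.23 (adjusted p = 0.0115 and 0.00198), the first being lost without PTC1 replicate 1 (0.13, adjusted p = 0.083). The regions within 1 Mb had medians of 0.08, 0.28 and 0.09. Under local centring the changes were 0.03 and 0.003 and neither passed, while LD turned to -0.23 (adjusted p = 0.0421).

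Smg5 was read through the region shared with Tmem79, centred 1 bp from the Tmem79 start. It had 1570, 1711 and 1684 normalised reads for WT, 1452, 1720 and 1727 for PTC1, 1903, 1813 and 1786 for PTC2 and 1827, 1848 and 1826 for LD. Every PTC2 and LD library exceeded every WT library, by a log2 of 0.15 in each group (0.02 to 0.28 for both, adjusted p = 0.042 and 0.0499), and PTC1 read -0.02 (-0.15 to 0.10). Both calls were marginal: local centring ended them (0.03 and 0.12), and so did leaving out WT replicate 1 (0.11 in each, adjusted p = 0.178 and 0.199). With Smg5 and Smg6 read at these shared regions, the counts against WT over 9 genes were 3 higher and 0 lower in PTC1, as before, 4 higher and 1 lower in PTC2, and 2 higher and 2 lower in LD. The shares of all start site regions called, given above, were 62.8%, 53.0% and 47.0%.

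**Figure D4:**
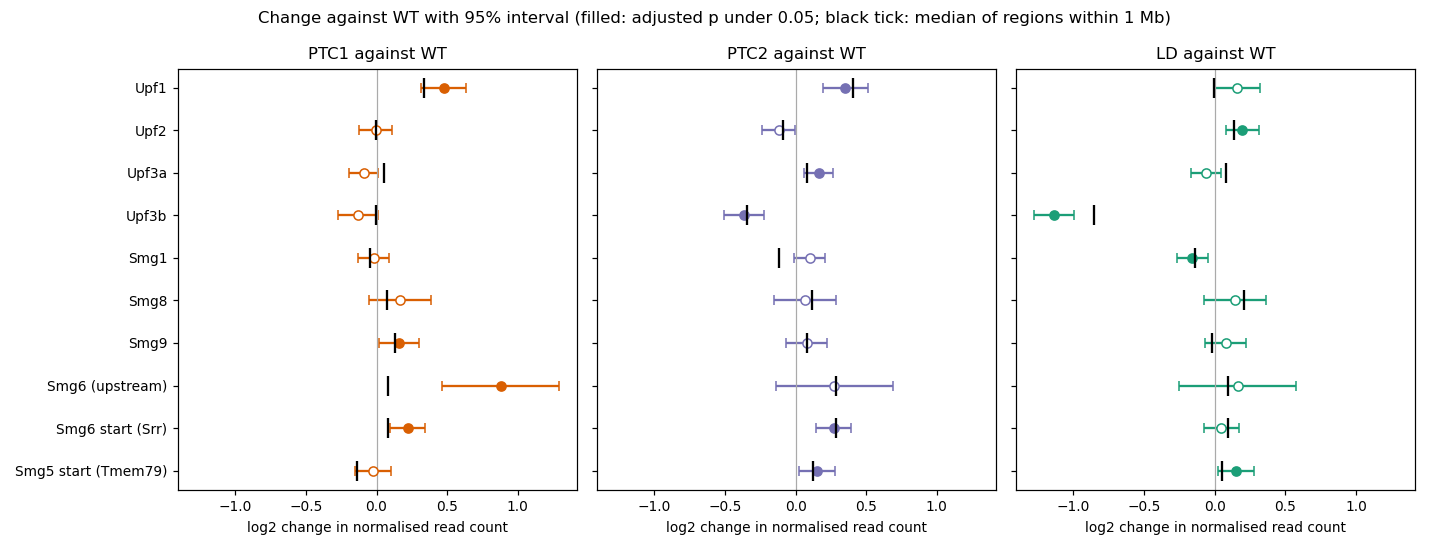
Log2 change against WT (horizontal axes) with its 95% interval at each start site region in PTC1, PTC2 and LD. Filled points passed the test and open points did not. Black ticks mark the median change of tested regions within 1 Mb, leaving out those within 10 kb. Upf3b in LD stands at -1.13 with its surroundings at -0.86, and Upf1 at 0.48 in PTC1 with its surroundings at 0.33.

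Between the mutant lines, 5 of the 8 listed start sites differed between PTC1 and LD, 4 of them higher in PTC1 (Upf1, Upf3b, Smg1 and Smg6) and Upf2 lower. Over all regions 67.8% were called in that comparison (34.0% higher, 33.7% lower), and 70.1% of start site regions (43.4% higher, 26.7% lower). Between PTC2 and LD, Upf1, Upf3a, Upf3b and Smg1 were higher and Upf2 lower, against 59.5% of all regions called (29.7% higher, 29.8% lower), and 65.3% of start site regions (51.5% higher, 13.8% lower). Upf1, Upf3b and Smg1 were thus called higher than LD in both premature stop lines, and Upf2 lower in both. The share of all start sites called alike in both comparisons was not counted. Of these 4, Upf3b kept its direction and call in both lines under local centring (0.51 and 0.48). Before centring, its 9 neighbouring start sites had median differences from LD of 0.98 in PTC1 and 0.69 in PTC2. Upf3b itself read 1.00 and 0.77 and lay above 5 of the 9 in each line. Under local centring Upf1 read 0.04 and -0.04, Smg1 -0.13 and 0.30, and Upf2 -0.01 and 0.10. Centring by chromosome turned Upf2 to 0.18 and 0.21, and both passed in this opposite direction. PTC1 and PTC2 differed at Smg6 and Upf3b (higher in PTC1) and Upf3a (lower), where 62.5% of all regions were called (31.6% higher, 30.9% lower), and 53.3% of start site regions (18.8% higher, 34.5% lower). The Upf3b call was lost with equal medians and when centred by chromosome or locally. On X 53.5% of start sites were called higher in PTC1 than in PTC2. These comparisons share the LD or PTC libraries and are not independent of each other.

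The genes whose start sites followed each member most closely over the 12 libraries were sought among all start sites within 1000 bp, by Pearson's r of the log2 values. The libraries fall into 4 lines, so r mostly reflects differences between lines. For Upf3b both were on X: Idh3g (r = 0.991, 36.7 Mb away) and Maoa (0.988, 20.5 Mb away), at 1106 and 1270 normalised reads in LD against 2093 and 2544 in WT. For Upf1 they were Dynll2 on chromosome 11 (0.937) and Tcf25 on chromosome 8 (0.931, 53.0 Mb away). For Upf3a they were Slc35b3 (0.985) and Fdps (0.964), for Upf2 Gjd3 (0.938) and Pla2g7 (0.932), and for Smg1 Abcc4 (0.950) and Ppp1r21 (0.946), each on another chromosome. Smg6 was closest to Hoxc6 (0.960) and Dio3 (0.957), which were nearly closed in WT at 11.7 and 9.00 normalised reads and reached 129 in PTC1. Smg8 and Smg9 had no match above 0.9, with Plcxd1 (0.834) and Phf1 (0.858) closest.

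Among 28 other genes of the pathway and its partners (exon junction, release, capping and decapping factors), 23 had a listed region. In PTC1 9 rose and 7 fell, in PTC2 10 rose and 1 fell, and in LD 2 rose and 6 fell. Among all start site regions, PTC1 had 33.4% called higher against 29.4% called lower, PTC2 had 38.8% against 14.2%, and LD had 15.8% against 31.2%, so the direction of most calls in PTC2 and LD was that of start sites in general. The median log2 changes of the 23 genes were -0.03, 0.12 and -0.003, against 0.02, 0.11 and -0.06 over start site regions. Etf1, the translation release factor that recognises stop codons, fell by 0.36 in PTC1 and by 0.64 in LD on the log2 scale. Gspt1, the GTPase partner of the release factor, fell by 0.54 in PTC1. Dcp1b, a decapping cofactor, fell in all 3 lines (-0.76, -0.37 and -0.36). Pabpc1, the cytoplasmic poly(A)-binding protein gene, rose in PTC1 and PTC2 (0.40 and 0.26) and fell in LD (-0.30). After local centring these values were smaller or turned. In PTC1 the sign turned for Etf1 (0.29), Gspt1 (0.20) and Pabpc1 (-0.18). Etf1 in LD then read -0.10, Dcp1b -0.20, -0.27 and -0.12 in PTC1, PTC2 and LD, and Pabpc1 0.10 in PTC2 and -0.28 in LD.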

How the data were processed

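The table holds 81995 regions and a score for each of 12 libraries. The authors deposited scores that behave as read counts multiplied by 1 factor per library and rounded: whole numbers are missing or doubled at regular steps. The deposited table also gives the fraction of each region inside the gene body and the distance to the start, per the file headers. The submitters' processing notes list mm10 and the tools Trimmomatic (0.39), STAR (2.7.10a), Picard (2.25.5) and DESeq2 (1.30.1). For peak calling and a Tn5 shift, methods were not given in the sources used.

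Scores plus 1 were log2 transformed and tested with limma (version 3.58.1, R 4.3.3; 1 mean for each of 4 groups, trended empirical Bayes) over 81985 regions whose mean was 5 or more, with adjustment over all of them. All 11 listed regions passed. Reads were estimated from the factor recovered in each column. Replicates varied 2.14 to 3.19 times as much as counting noise gives, in variance, and no 2 libraries were identical. Tested on simulated data (PTC1 against WT, 81985 regions), the fit called 48.0% of 50 regions at a log2 change of 0.5 and 96.0% of 50 at 1. In that simulation 81785 regions had no set change, whereas 61.8% of regions were called in the data for this comparison. The adjusted p cutoff was therefore stricter in the simulation, and these shares do not carry over to the tests reported here. The members, lists and motifs were chosen with earlier results of these data known. Named were all members, the 2 start sites most like each and the 4 other pathway genes with the lowest adjusted p. Local centring subtracts each library's median over regions within 1 Mb, leaving out those within 10 kb. That median is of log2 values, so a centred change need not equal the change minus the neighbours' median change.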

Additional observations from a re-analysis of the deposited data

How the results depend on the processing

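Of 78 log2 changes tested, 45 passed the test, and 21 of these kept direction and call under all 19 alternatives. Leaving out 1 library kept 497 called values and weakened 43. The other settings kept 277, weakened 29 and reversed 9. The causes were not tested. Scaling to the same median moved the median change of all regions by 0.17 in PTC2 against LD and by -0.10 in PTC1 against PTC2, and chromosome centring by 0.18 and -0.12. In PTC2 against LD the split of all calls moved from 24367 higher and 24441 lower to 32322 and 19010 with equal medians and 32555 and 18483 by chromosome. In LD against WT it moved from 18561 and 20278 to 14031 and 24353 by chromosome.

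With columns scaled to the same median, members called were 4 higher in PTC2 and 0 higher in LD against WT, 0 lower in PTC1 and in PTC2 against LD, and 1 higher and 2 lower in PTC1 against PTC2. Calls over all 81985 regions moved too, from 23276 higher and 24451 lower to 28435 and 20984 in PTC2 against WT. In LD against WT they moved from 18561 and 20278 to 15165 and 23944. They moved from 27905 and 27653 to 30470 and 25050 in PTC1 against LD. For PTC1 against PTC2 the change was from 25932 and 25320 to 22473 and 29713. Reversed with equal medians were Srr/Smg6 in LD against WT (-0.028), Upf3a in PTC1 against LD (0.041), Smg8 (0.090) and Tmem79/Smg5 (0.17) in PTC2 against LD, and Smg9 in PTC1 against PTC2 (-0.018).

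Centred by chromosome, members called against WT were 1 lower in PTC1, 0 lower in PTC2 and 0 higher in LD. Against LD 0 were lower in PTC1 and in PTC2, and PTC1 against PTC2 gave 1 higher and 2 lower. Upf2 reversed in all 6 comparisons, to 0.16 in PTC1, 0.19 in PTC2 and -0.015 in LD against WT, 0.18 and 0.21 in PTC1 and PTC2 against LD, and -0.032 in PTC1 against PTC2. Also reversed were Upf3b in PTC1 (0.090) and PTC2 (0.074) against WT, Smg8 in LD against WT (-0.017) and PTC2 against LD (0.050), Tmem79/Smg5 in the same pair (-0.023 and 0.28) and Srr/Smg6 in LD against WT (-0.11).

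With local centring, members called against WT were 1 lower in PTC1, 1 higher and 0 lower in PTC2 and 0 higher in LD. Against LD 0 were lower in PTC1 and in PTC2, and PTC1 against PTC2 gave 1 higher and 2 lower. Reversed were Smg1 in PTC1 (0.060) and LD (0.19) against WT and PTC1 against LD (-0.13). Smg8 reversed in PTC1 (-0.0051), PTC2 (-0.18) and LD (-0.49) against WT and in PTC2 against LD (0.31). Upf2 reversed in PTC2 against WT (0.11), PTC2 against LD (0.10) and PTC1 against PTC2 (-0.11). The Upf1 gene body (0.018), Smg6 (-0.079) and Srr/Smg6 (-0.23) reversed in LD against WT, Srr/Smg6 in PTC1 against PTC2 (0.024) and Upf1 in PTC2 against LD (-0.038).

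Reading Smg5 and Smg6 at the regions over their starts, chosen after seeing the data, gave 4 higher in PTC2 and 2 higher in LD against WT, 2 lower in PTC1 against LD, and 1 higher and 2 lower in PTC1 against PTC2. Leaving out 1 library gave 2 to 3 higher and 0 to 1 lower in PTC1, and 2 to 3 higher and 1 to 2 lower in PTC2, against WT. In LD against WT it gave 0 to 2 higher and 1 to 2 lower. In PTC1 against PTC2 it gave 1 to 2 higher and 1 to 2 lower. Over all regions the calls were 23121 to 25282 higher and 23930 to 25749 lower in PTC1 against WT. They were 20924 to 23419 and 22731 to 24568 in PTC2, and 15923 to 18832 and 18217 to 20585 in LD, against WT. For PTC1 against PTC2 they were 24261 to 26030 and 23522 to 25389. Signs turned for Upf2 (-0.050 to 0.018), Smg1 (-0.053 to 0.022) and Tmem79/Smg5 (-0.066 to 0.059) in PTC1 against WT and for the Upf1 gene body (-0.14 to 0.11) and Smg9 (-0.00036 to 0.14) in LD against WT. They also turned for Upf3a (-0.078 to 0.0050) and Smg8 (-0.087 to 0.083) in PTC1 against LD and for Smg9 (-0.062 to 0.078), Smg6 (-0.016 to 0.25) and Tmem79/Smg5 (-0.027 to 0.019) in PTC2 against LD.

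With the replicate number as a block, PTC1 against PTC2 gave 2 members lower, since Smg1 passed (-0.12, adjusted p = 0.0437), and no other member call changed. Deviations of same-numbered libraries correlated at -0.0044 to 0.0447 over 18 pairs (median 0.0135). Those of other-numbered libraries correlated at -0.0396 to 0.0222 over 36 pairs (median -0.0055). Any pairing by number was therefore weak, and the main fit did not include it.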
